A study of Pardosa pseudoannulata with 6 samples.

Results

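Troponin is the calcium switch of striated muscle. The troponin complex sits on the actin thin filament together with tropomyosin: troponin T anchors the complex to tropomyosin, troponin I holds the filament off, and troponin C, an EF-hand protein related to calmodulin, binds calcium and releases that block so that myosin can pull. Insects such as Drosophila melanogaster carry several troponin C genes that are used in different muscles and stages.

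The transcripts described here were 3 of the 75542 assembled genes in the table: 1 troponin T (Cluster-8110.35305) and 2 troponin C (Cluster-8110.35522 and Cluster-8110.30915). They were chosen by gene identifier because earlier results of these data had shown the first pair of clusters lower and the last higher after knockdown. The difference between the groups in these 3 genes is therefore a description and carries no test. All 3 passed the filter on low values.

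The samples were 6 RNA sequencing libraries from Pardosa pseudoannulata, a wolf spider of farmland. The 3 dsFactin libraries came from spiders given double-stranded RNA against the F-actin gene, which triggers RNA interference, and the 3 dsNC libraries from spiders given a control double-stranded RNA. Animals of both groups carried the same cadmium treatment and the same kind of microinjection, so no library shows a spider without cadmium or without injected RNA. The labels give the material as an individual and give no sex, age, tissue, dose or time. Should an individual mean a whole spider, the values average over its organs. Whether replicates are separate animals is not said. The p-values below therefore measure the spread between 6 libraries, which may be technical.

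Values are FPKM, in which a fragment count is divided by transcript length and by depth, so levels of different genes can be set side by side per length. The recovered depth was 16.1 to 17.9 M fragments (M, 1e6) in dsFactin and 15.7 to 17.6 M in dsNC. Libraries within dsFactin were less alike (Spearman's rho 0.741 to 0.869 between pairs) than those within dsNC (0.897 to 0.934), and dsFactin replicate 2 had the lowest weight of the 6 when limma weighed libraries by their spread (0.585). Over all 53182 tested genes, 41 were higher and 223 lower in dsFactin at an adjusted p under 0.05 in limma, or 0.0771% and 0.419% of those tested. The split was 67 higher and 176 lower with quantile normalization, and 371 higher and 262 lower with voom at median-ratio library sizes. The median log2 difference over all tested genes was -0.27. With libraries rescaled by median ratios it was -0.11, with quantile normalization 0.01, so single differences are also given relative to that median.

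The injected RNA was directed at actin, and the labels do not say which actin transcript it matches. The Actin-87E cluster (Cluster-8110.35523) averaged 431 ± 114 FPKM in dsFactin and 1019 ± 124 FPKM in dsNC (log2 -1.26 ± 0.21, SE, adjusted p = 0.0675, limma). An A3a-like cytoplasmic actin (Cluster-8110.34823) averaged 2482 ± 672 FPKM in dsFactin and 5273 ± 764 FPKM in dsNC (SD, n = 3 each, adjusted p = 0.0911). Actin clone 403 transcripts were at 3398 ± 555 and 4186 ± 146 FPKM (Cluster-8110.34480) and at 1932 ± 153 and 1733 ± 61.0 FPKM (Cluster-8110.34975) in dsFactin and dsNC. All but the last of these clusters lay wholly below dsNC, and the last lay wholly above. Among the 10 tested actins 4 lay wholly below and 2 wholly above, against 21.5% and 5.98% of all tested genes. At a mean of at least 50 FPKM those shares of all genes were 16.3% and 31.5%. Of the 10 tested actins 0 passed in limma, 3 had an unadjusted p under 0.05, and 2 passed with voom, which was 0 when its library sizes were scaled by median ratios. An unadjusted p under 0.05 was reached by 19.3% of all tested genes.

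Troponin T (Cluster-8110.35305, 2894 bases, best hit in the spider Stegodyphus dumicola) was at 534, 527 and 664 FPKM in dsFactin, against 1132, 1427 and 1273 FPKM in dsNC. The highest dsFactin library stood well under the lowest dsNC library. The means were 575 ± 77.0 FPKM in dsFactin and 1277 ± 148 FPKM in dsNC (SD, n = 3 each), so dsFactin held 45.0% of the dsNC level, a log2 difference of -1.15 ± 0.16 (SE). In order of abundance the transcript was gene 272 to 338 in the dsFactin libraries and gene 103 to 142 in the dsNC libraries. In bulk RNA, fewer muscle cells and less troponin RNA per muscle cell cannot be told apart.

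The abundant troponin C (Cluster-8110.35522, 1529 bases, best hit in the wolf spider Lycosa singoriensis) was at 421, 449 and 527 FPKM in dsFactin, against 890.3, 1071 and 1079.6 FPKM in dsNC. These groups also did not overlap. The means were 466 ± 54.6 FPKM in dsFactin and 1014 ± 107 FPKM in dsNC (SD, n = 3 each), 45.9% of the dsNC level and a log2 difference of -1.12 ± 0.15 (SE).

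The minor troponin C (Cluster-8110.30915, 1358 bases, best hit in Stegodyphus dumicola) went the other way. It was at 72.4, 65.8 and 77.7 FPKM in dsFactin, against 49.0, 52.6 and 56.4 FPKM in dsNC. Every dsFactin library lay above every dsNC library. The means were 72.0 ± 5.98 FPKM in dsFactin and 52.7 ± 3.71 FPKM in dsNC (SD, n = 3 each), a ratio of 1.37 and a log2 difference of 0.44 ± 0.12 (SE). In the Swiss-Prot column both troponin C clusters hit the same mite protein, of Tyrophagus putrescentiae. How reads were divided between these related clusters is not stated, so the split between them carries that uncertainty.

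**Figure D1:**
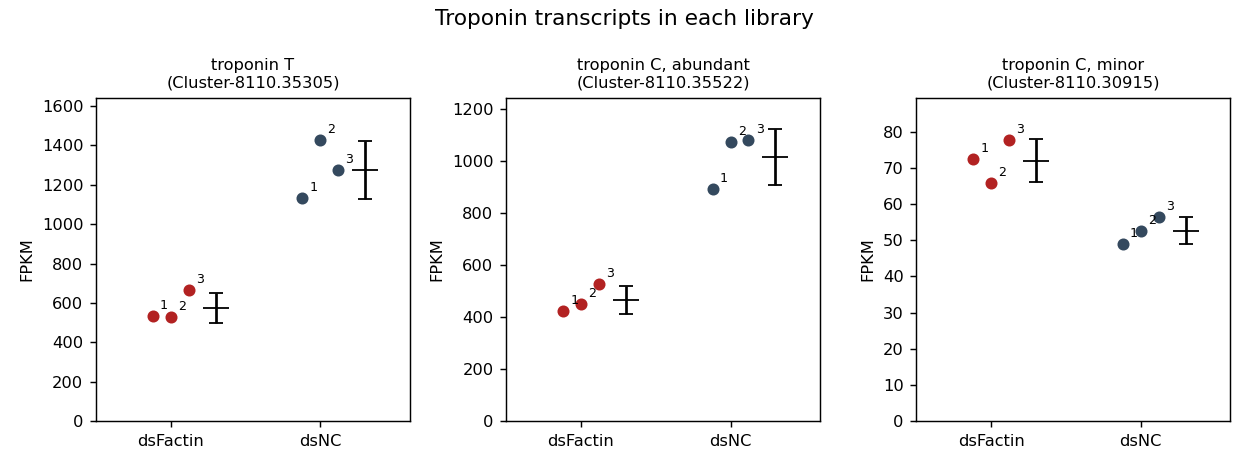
FPKM (y axis, from 0) of troponin T and the 2 troponin C clusters in 3 dsFactin and 3 dsNC libraries; points are libraries with their replicate number, and the bars give the mean ± SD. Troponin T and the abundant troponin C lie lower in dsFactin, at means of 575 and 466 FPKM, and the minor troponin C higher, at 72.0 FPKM against 52.7 FPKM in dsNC.

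Troponin T rested on 22582 to 60213 recovered fragments a library, the abundant troponin C on 9090.0 to 23382 and the minor troponin C on 804 to 1393, which gives a counting error of at most 3.53%. That error leaves out the spread between libraries, which the SD and SE above carry. Without dsFactin replicate 2, the library with the lowest weight, the log2 differences were -1.09 for troponin T, -1.10 for the abundant and 0.50 for the minor troponin C. Relative to the median of all tested genes they were -0.88, -0.85 and 0.71, with median-ratio rescaling -0.75, -0.72 and 0.84, and with quantile normalization -1.22, -1.20 and 0.37.

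Abundant genes as a whole did not share the negative median. Among the 2399 tested genes with a mean of at least 50 FPKM the median log2 difference was 0.09, with 1.83% passing as lower and 0.5% as higher. The dsFactin libraries lay wholly below the dsNC libraries in 16.3% of them and wholly above in 31.5%. Of these genes 11.0% had a lower log2 difference than troponin T and 11.2% a lower one than the abundant troponin C. For the minor troponin C, 24.5% had a higher one, so a value of its size was common among genes at its level.

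The make-up of the troponin C pool differed between the groups. The minor cluster held 14.7, 12.8 and 12.9% of the summed troponin C FPKM in dsFactin, against 5.22, 4.68 and 4.97% in dsNC. The means were 13.4 ± 1.06% in dsFactin and 4.96 ± 0.268% in dsNC (SD, n = 3 each). The abundant cluster was thus at 6.47 ± 0.565 times the minor one in dsFactin and 19.2 ± 1.10 times in dsNC. Added together, troponin C stood at 538 ± 58.7 FPKM in dsFactin and 1066 ± 110 FPKM in dsNC, so the higher minor cluster made up little of the lower level of the abundant one.

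Troponin T and the abundant troponin C kept close to a fixed proportion. Their FPKM ratio was 1.27, 1.17 and 1.26 in dsFactin and 1.27, 1.33 and 1.18 in dsNC, and these ranges overlapped. Troponin I (Cluster-8110.34840), the inhibitory subunit, stood at 2.05, 2.01 and 2.03 times troponin T in dsFactin, against 1.88, 1.81 and 1.88 times in dsNC. The main tropomyosin (Cluster-8110.35238) stood at 1.37 ± 0.122 times troponin T in dsFactin and 1.14 ± 0.00957 times in dsNC (SD, n = 3 each). Both ratios were higher in every dsFactin library than in any dsNC library. Troponin T was therefore lower by slightly more than either of them.

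**Figure D2:**
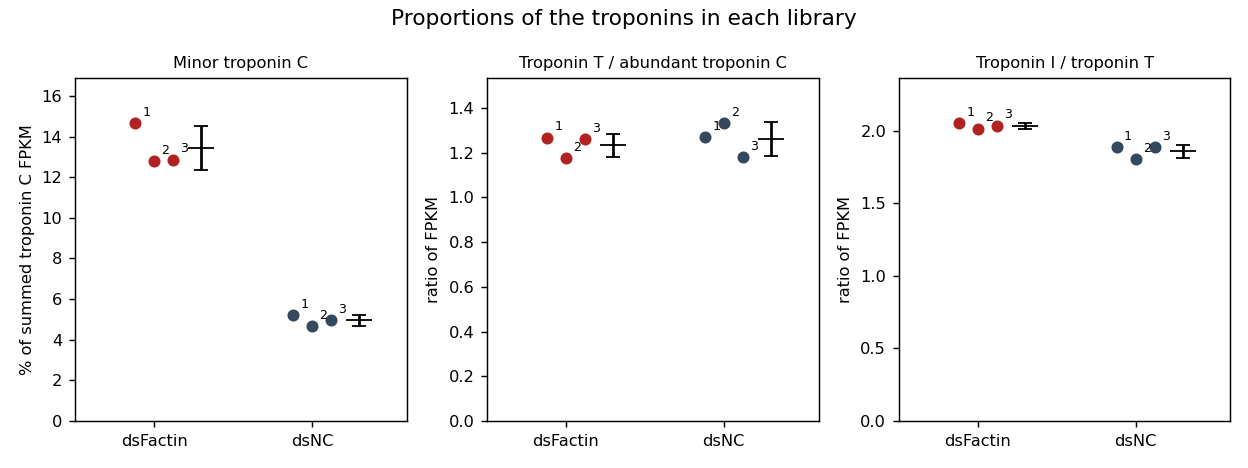
Left, the minor troponin C as a percentage of summed troponin C FPKM; middle, the FPKM ratio of troponin T to the abundant troponin C; right, the FPKM ratio of troponin I to troponin T (y axes from 0; points, libraries with replicate number; bars, mean ± SD). The minor share averages 13.4% in dsFactin and 4.96% in dsNC, while the middle ratio overlaps between the groups at 1.23 and 1.26.

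Within the groups the members moved together. After subtraction of the group means, the log2 levels of troponin T and the abundant troponin C had a Pearson r of 0.90 over the 6 libraries, troponin T and troponin I 0.99, and troponin T and tropomyosin 0.98. The minor troponin C, whose group difference had the other sign, also had positive values within groups, 0.70 with troponin T and 0.74 with the abundant troponin C. These are descriptions over 6 libraries that share their depth scaling, with few degrees of freedom once group means are removed. Of 2046 named genes at 50 FPKM or more, 1.61% had an r over 0.9 with troponin T on this measure.

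**Figure D3:**
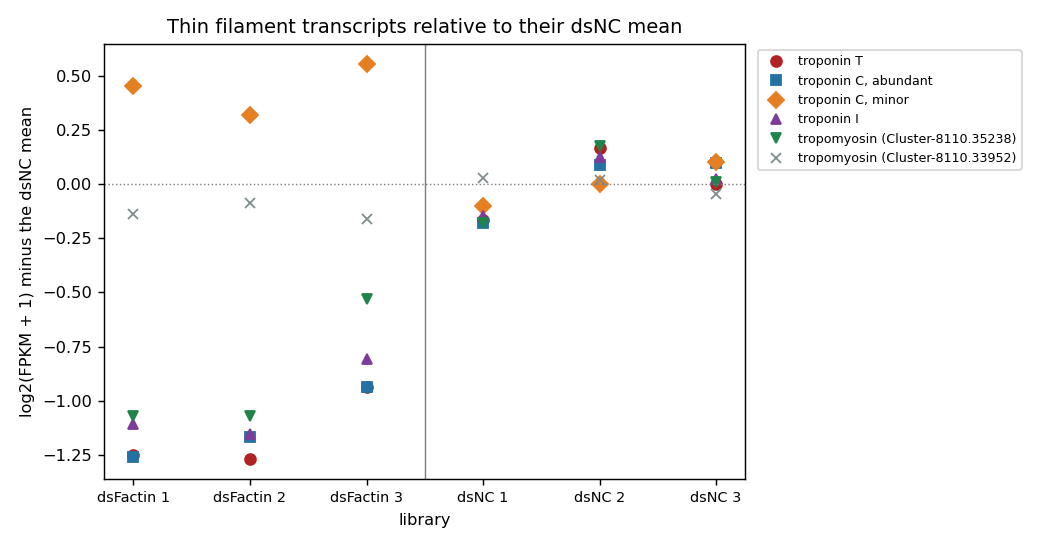
Log2(FPKM + 1) of 6 thin filament transcripts in each library (x axis), minus that transcript's dsNC mean (y axis; dotted line, dsNC mean). Troponin T, the abundant troponin C, troponin I and a tropomyosin lie below the line in all 3 dsFactin libraries, least so in replicate 3, the minor troponin C lies above it, and a second tropomyosin stays near it.

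By levels over all 6 libraries, the genes most like troponin T were troponin I (Cluster-8110.34840, r = 0.999), an ADP,ATP carrier protein of mitochondria (Cluster-8110.35693, r = 0.997), a paramyosin (Cluster-8110.35845, r = 0.996), an L-xylulose reductase-like gene (Cluster-8110.35473, r = 0.995) and the abundant troponin C itself (r = 0.994). The abundant troponin C was followed most closely by the same L-xylulose reductase-like gene (r = 0.999), troponin T, troponin I (r = 0.994), the ADP,ATP carrier protein (r = 0.993) and an uncharacterized protein (Cluster-8110.35201, r = 0.989). The genes nearest to the minor troponin C were a lysosomal alpha-glucosidase (Cluster-8110.26399, r = 0.9996), which splits glycogen in lysosomes, an uncharacterized protein (Cluster-8110.32945, r = 0.996), fumarylacetoacetase of tyrosine breakdown (Cluster-8110.38074, r = 0.996), a further gene without a described function (Cluster-8110.33892, r = 0.992) and a 1,4-alpha-glucan-branching enzyme-like gene of glycogen synthesis (Cluster-8110.36912, r = 0.987). These r values include the group difference by which the 3 transcripts were chosen. With group means subtracted, the genes nearest to troponin T were a paramyosin (Cluster-8110.33944, r = 0.996), troponin I (r = 0.990) and an aspartate aminotransferase (Cluster-8110.34543, r = 0.990). Those nearest to the abundant troponin C were then an aldolase of glycolysis (Cluster-8110.34760, r = 0.991), a pno1-like gene (Cluster-8110.40133, r = 0.989) and triosephosphate isomerase (Cluster-8110.33616, r = 0.987). For the minor troponin C they were again the lysosomal alpha-glucosidase (r = 0.997), Cluster-8110.32945 (r = 0.994) and fumarylacetoacetase (r = 0.983). Over levels, an r over 0.9 with the minor troponin C was reached by 14.1% of the 2046 genes, and with troponin T by 7.09%.

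A further 10 clusters had a troponin protein as best hit. The largest was troponin I (Cluster-8110.34840), at 1096, 1062 and 1350.3 FPKM in dsFactin, against 2134, 2578 and 2398 FPKM in dsNC. It was lower in all 3 dsFactin libraries, with a log2 difference of -1.02 ± 0.16 (SE) that missed the threshold (adjusted p = 0.0597, limma). It passed when only genes with a mean of at least 5 FPKM were tested (adjusted p = 0.0272), with array weights (adjusted p = 0.0427) and with voom (adjusted p = 0.00683). It passed in no other setting. The adjusted p was 0.0658 with voom at median-ratio library sizes, 0.203 with median-ratio rescaling and 0.216 with the replicate block. With a library left out the adjusted p lay from 0.0531 to 0.197. A smaller troponin I (Cluster-8110.38670) was at 12.4, 9.17 and 8.54 FPKM in dsFactin, against 20.6, 26.4 and 21.3 FPKM in dsNC (adjusted p = 0.0644, and adjusted p = 0.0353 among genes at 5 FPKM or more). In no other setting did this smaller cluster pass. Another troponin I cluster, of only 308 bases (Cluster-8110.36210) scattered widely, at 54.4, 604 and 5.04 FPKM in dsFactin, against 661, 762 and 1252 FPKM in dsNC (adjusted p = 0.243). Without dsFactin replicate 2, which holds the high value, its adjusted p was 0.0477. With any other library left out it was 0.369 to 0.453, and in the remaining settings 0.121 to 0.341. A pair of clusters named troponin 1 averaged 1.68 FPKM in dsFactin and 3.57 FPKM in dsNC (Cluster-8110.36419), and 1.17 FPKM in dsFactin and 3.13 FPKM in dsNC (Cluster-8110.45265).

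The remaining 5 troponin clusters had a Drosophila best hit and were listed at 0 in every dsFactin library. Summed, they stood at 1.78, 5.19 and 24.8 FPKM in dsNC replicates 1 to 3, no more than 0.406% of all troponin FPKM in a library. The same held more widely: of 2134 genes with a Drosophila best hit, 71 to 83 were above 0 in dsFactin libraries and 648 to 2089 in dsNC libraries. Their part in the levels of the other troponins was not tested. Of the 8 tested further troponins, 3 of them with a Drosophila hit, 0 passed in limma, 8 had an unadjusted p under 0.05, and 1 passed with voom, or 0 at median-ratio library sizes. The 3 with a Drosophila hit passed the filter on low values through dsNC alone, which fixed their direction. In the other 5 the dsFactin libraries lay below the dsNC libraries, as they did in 21.5% of all tested genes. Another 4 clusters matched a troponin only by nucleotide hit and are outside these counts. Those hitting troponin T averaged 1.06 FPKM in dsFactin and 1.43 FPKM in dsNC (Cluster-8110.43723), and 0.913 and 0.57 FPKM (Cluster-8110.10498). Those hitting troponin 1 averaged 2.47 and 5.69 FPKM (Cluster-8110.36890), and 1.44 and 7.67 FPKM (Cluster-8110.25422). Their adjusted p-values in limma were 0.0997 or more.

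Tropomyosin is the coiled rod that troponin T holds, and all 4 tested clusters had a negative log2 difference. The main cluster (Cluster-8110.35238) was at 691, 689.6 and 1004 FPKM in dsFactin, against 1278, 1636 and 1458 FPKM in dsNC (log2 -0.89 ± 0.20, SE, adjusted p = 0.0954). A second one (Cluster-8110.33952) was at 73.5, 76.3 and 72.3 FPKM in dsFactin, against 82.5, 82.0 and 78.5 FPKM in dsNC (log2 -0.13 ± 0.10, adjusted p = 0.513), a difference that took a positive sign once libraries were rescaled by median ratios. Tropomodulin (Cluster-8110.34578), which caps the slow-growing end of the filament, was at 28.9 ± 1.63 FPKM in dsFactin and 34.5 ± 3.39 FPKM in dsNC, again with a positive sign under median ratios. A calponin-3 hit (Cluster-8110.37012), an actin-binding protein best known from smooth muscle of vertebrates, was at 49.9, 44.1 and 84.7 FPKM in dsFactin, against 33.0, 34.0 and 34.2 FPKM in dsNC (log2 0.74 ± 0.25, SE, adjusted p = 0.183). In limma 0 of 4 tropomyosins and 0 of 9 filament-end and partner genes passed. An unadjusted p under 0.05 was reached by 2 tropomyosins, both lower, and 6 partner genes, 5 lower and 1 higher. Over all tested genes that share was 19.3%. With voom 1 of each group passed, both lower, and 0 at median-ratio library sizes, against 1183 and 633 of all 53182.

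Among 166 tested genes of thin filament, thick filament, Z disc and muscle calcium handling, with the 3 transcripts above left out, 151 had a negative log2 difference and 15 a positive one, against 38067 negative and 15115 positive among all 53182 tested genes. Of the 166, 0 rose and 3 fell at an adjusted p under 0.05 in limma, or 1.81%, against 0.419% of all tested genes lower and 0.0771% higher. The median log2 difference was -0.83, against -0.27 over all tested genes. For the 31 of them at 50 FPKM or more it was -0.72, against 0.09 over all genes at that level. In limma 0 of the 31 passed, against 1.83% lower and 0.5% higher among all genes at that level. An unadjusted p under 0.05 was reached by 18 of the 31, 16 lower and 2 higher. Among the 2399 genes at that level it was reached by 967, 338 lower and 629 higher. With voom 13 of the 31 passed, all lower, or 0 at median-ratio library sizes, against 310 and 199 of the 2399. The list holds 11 tested genes with a Drosophila hit, which the counts of signs above include. Genes with such hits were mostly at 0 in dsFactin. For any that passed the filter on low values through dsNC alone, the negative sign was fixed. Without the 11 the median was -0.79 over 155 genes, and 3 passed in limma. The list was drawn by words in the best hits with earlier results of these data known, and counts pieces of 1 long gene as several clusters. Those words also took genes whose names do not place them in the sarcomere. Examples are an afadin- and alpha-actinin-binding protein (Cluster-8110.31491) and a LIM and calponin homology domains-containing protein (Cluster-8110.37467).

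The genes past the threshold were a titin-like elastic scaffold gene (Cluster-8110.32220) and 2 proteins of the calcium store that feeds troponin C. Titin-like was at 3.91, 4.26 and 5.68 FPKM in dsFactin, against 28.9, 27.4 and 22.9 FPKM in dsNC (log2 -2.29 ± 0.18, SE, adjusted p = 0.00983). Sarcalumenin (Cluster-8110.36290), a calcium-binding protein of the sarcoplasmic reticulum, was at 24.1, 23.2 and 25.0 FPKM in dsFactin, against 49.5, 64.1 and 50.1 FPKM in dsNC (adjusted p = 0.0410). The ryanodine receptor (Cluster-8110.34252), the channel that releases calcium onto the filaments, was at 10.5, 14.4 and 12.9 FPKM in dsFactin, against 27.6, 34.4 and 30.8 FPKM in dsNC (adjusted p = 0.0462). These groups did not overlap, but the count changed when a library was left out. Without dsNC replicates 1, 2 or 3 it was 0, 0 and 1 of the 166, and without dsFactin replicates 1, 2 or 3 it was 0, 21 and 3. It was 1 with median-ratio rescaling, 33 with voom and 5 with voom at median-ratio library sizes. Over all 53182 genes these settings gave 121, 1183 and 633. With only genes at 5 FPKM or more tested, the contractile count was 26 of 81, against 781 of 12897 genes in all. In each of these settings 0 of the contractile list rose.

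In the thick filament and the Z disc, clusters of 1 family lay at different distances from their dsNC level. A striated muscle myosin heavy chain (Cluster-8110.35904), the motor, was at 369 ± 118 FPKM in dsFactin and 783 ± 65.7 FPKM in dsNC (adjusted p = 0.0883). Further heavy chain clusters differed by a log2 of -1.41 ± 0.24 (Cluster-8110.35383, adjusted p = 0.0681) and -1.30 ± 0.22 (Cluster-8110.34825, SE, adjusted p = 0.0688). The main myosin light chain (Cluster-8110.35454) was at 1909 ± 626 FPKM in dsFactin and 3926 ± 238 FPKM in dsNC (adjusted p = 0.0977). An alkali light chain (Cluster-8110.33482) was at 392 ± 5.14 FPKM in dsFactin and 370.1 ± 10.9 FPKM in dsNC (adjusted p = 0.671), and a regulatory light chain (Cluster-8110.34416) at 134 ± 18.9 and 101 ± 4.97 FPKM (adjusted p = 0.195). Whether members of a family differed from each other was not tested.

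Paramyosin, the core rod of invertebrate thick filaments, was at 105 ± 20.1 FPKM in dsFactin and 232 ± 21.9 FPKM in dsNC in one cluster (Cluster-8110.35845, adjusted p = 0.0536), and at 238 ± 29.5 and 212 ± 10.7 FPKM in another (Cluster-8110.36094, adjusted p = 0.537). Alpha-actinin (Cluster-8110.34616), which ties thin filaments to the Z disc, was at 224 ± 26.6 FPKM in dsFactin and 262 ± 10.5 FPKM in dsNC (adjusted p = 0.377), and took a positive sign under median ratios. The calcium pump that refills the store (Cluster-8110.35482) was at 433, 499.6 and 771 FPKM in dsFactin, against 1104, 1636 and 1326 FPKM in dsNC (adjusted p = 0.0857). Calsequestrin-2 (Cluster-8110.35789), the calcium buffer inside that store, was at 354 ± 64.1 FPKM in dsFactin and 369.7 ± 30.4 FPKM in dsNC (adjusted p = 0.821), and took a positive sign under median ratios and without dsFactin replicate 2. All of these errors are SD with n = 3 each unless given as SE.

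**Figure D4:**
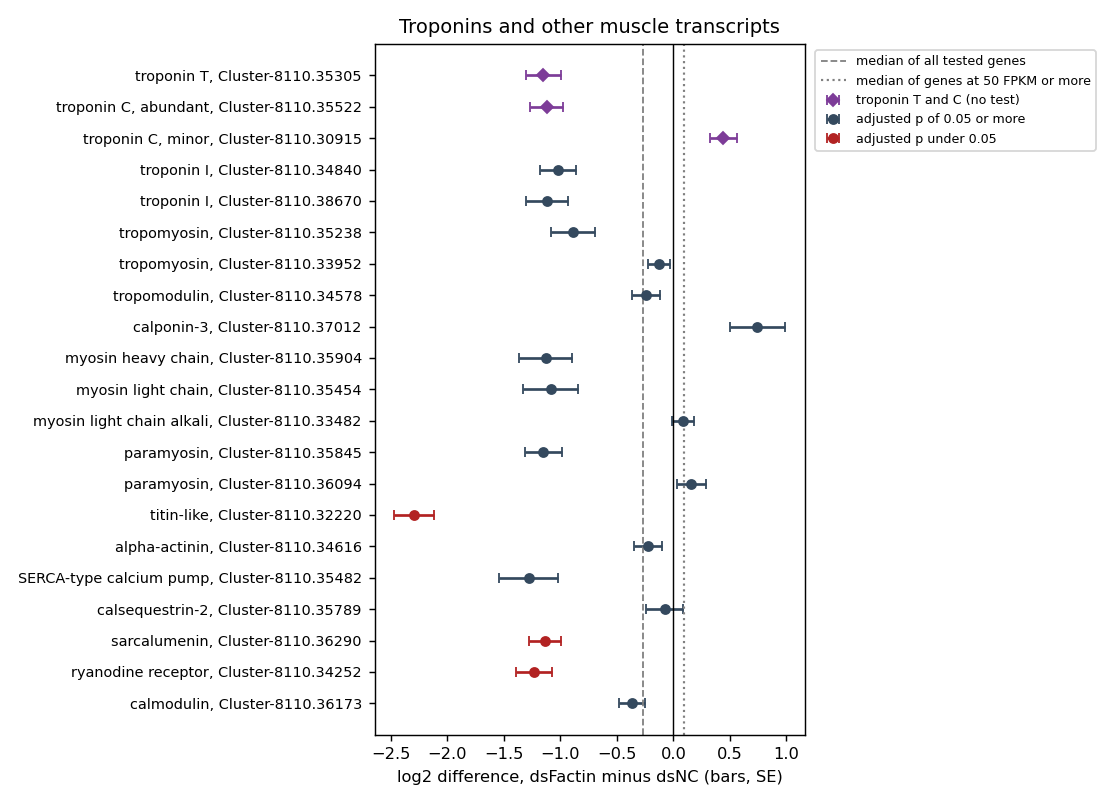
Log2 difference, dsFactin minus dsNC (x axis; bars, SE), of the 3 troponin transcripts described (diamonds, not tested) and 18 other muscle and calcium-binding transcripts (circles; red, adjusted p under 0.05 in limma). Dashed and dotted lines mark the medians of all tested genes, -0.27, and of genes at 50 FPKM or more, 0.09; titin-like lies lowest at -2.29. Tropomyosin Cluster-8110.33952, tropomodulin, alpha-actinin and calsequestrin-2 take a positive sign under median-ratio rescaling.

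As a share of the summed FPKM of this word-drawn contractile list, members included, troponin T held 5.33 ± 0.0865% in dsFactin and 6.56 ± 0.252% in dsNC, the abundant troponin C 4.32 ± 0.192% and 5.21 ± 0.198%, and the minor troponin C 0.671 ± 0.0604% and 0.271 ± 0.0167% (SD, n = 3 each). The summed contractile level was 10811 ± 1607 FPKM in dsFactin and 19453 ± 1655 FPKM in dsNC.

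Marker lists of other tissues are given beside the troponins. Positive differences were 15115 of 53182 among all tested genes and 1435 of 2399 among those at 50 FPKM or more. Genes at that level were 16 of 57 tested for muscle, 32 of 45 for haemolymph and 84 of 181 for cuticle. For digestive enzymes they were 28 of 58, for yolk 19 of 37, for silk gland 25 of 38 and for nervous system 1 of 45. None of these shares is matched to every list. Muscle summed to 4517 to 5622 FPKM in dsFactin and 8739.5 to 10872 FPKM in dsNC, with 7 of 57 tested genes positive and 1 passing in limma, lower. The 57 include 4 with a Drosophila hit. At an unadjusted p under 0.05, 34 muscle genes were lower and 0 higher. With voom 15 passed, all lower, or 1 at median-ratio library sizes. Haemolymph, marked by hemocyanin, summed to 43749 to 53999 FPKM in dsFactin and 71802 to 88729.5 FPKM in dsNC, with 0 of 45 positive and 0 passing in limma, 27 at an unadjusted p under 0.05, and 12 passing with voom or 0 at median-ratio library sizes. Cuticle genes held the most calls of these lists. Of 181 tested, 20 passed as lower and 0 as higher in limma, with a median log2 difference of -1.64. At an unadjusted p under 0.05, 79 were lower and 4 higher. Their sums, 8615 to 29607 FPKM in dsFactin and 29603 to 34983 FPKM in dsNC, just overlapped. With voom 32 passed, all lower, or 24 at median-ratio library sizes. Digestive enzymes summed to 14789 to 16306 FPKM in dsFactin and 8955 to 11641 FPKM in dsNC, with 28 of 58 positive and 2 passing in limma, both lower. At an unadjusted p under 0.05 in limma, 20 were higher and 8 lower. With voom 12 passed, 3 of them lower, or 10 at median-ratio library sizes. Yolk genes summed to 14565 to 25864 FPKM in dsFactin and 9960.2 to 14178 FPKM in dsNC, with 27 of 37 positive and 1 passing each way in limma. At an unadjusted p under 0.05, 16 were higher and 1 lower. With voom 5 passed, 0 of them lower, or 7 at median-ratio library sizes. For silk gland (18 of 38 positive) and nervous system genes (13 of 45 positive) the sums overlapped as well, and 0 passed in limma or with either voom fit. At an unadjusted p under 0.05 were 5 silk gland genes, 4 higher and 1 lower, and 12 nervous system genes, 1 higher and 11 lower. The part of these lists in the troponin levels was not tested.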

How the data were processed

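The members and gene lists were chosen with earlier results of these data known. The authors deposited 1 FPKM table with a column for each library and best protein hits, per the file headers. Aligner, assembler and counter are not stated in any source used here. Per the submitters' processing notes the build is mm10, of the mouse, but the rows are clusters without coordinates, and no sequences were used here. Other columns, such as cluster length, were used as deposited.

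Counts were not given. Depth came from the spacing of low FPKM values in clusters of 450 to 650 bases, where 99.7 to 99.9% of values lay within 0.1 of a whole number of fragments. At these depths 3 fragments in 1000 bases equal 0.233 to 0.278 FPKM. Intervals and floors cover counting error only. Depth averaged 16.8 ± 0.912 M in dsFactin and 16.5 ± 0.964 M in dsNC (SD, n = 3 each, two-sided exact permutation p = 0.6); 3 against 3 libraries cannot give a p below 0.1, so this test could not have reached 0.05.

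Genes that reached 0.5 FPKM in 3 or more libraries were compared as log2(FPKM + 1) with limma 3.58.1 in R 4.3.3, with an intensity trend, two-sided, with Benjamini-Hochberg adjustment over all 53182 genes, and passed at an adjusted p under 0.05. The fit was tested on simulated data. Fold changes on this scale understate those of low genes. Lists were drawn by words in the NR and Swiss-Prot hits. Genes named were the members, every other troponin with a mean of at least 1 FPKM, per list the 3 most abundant and the 2 positive and 2 negative genes with the smallest adjusted p (mean of at least 1 FPKM), and the 5 named genes at 50 FPKM or more most correlated with each member. Not all genes the rule took are named. Alternatives were other pseudocounts, filters and scalings, no trend, array weights, voom on recovered fragments, the replicate block and leaving out each library. Voom with median-ratio library sizes was added after seeing the data: voom was first run with TMM-scaled sizes and, once results had been seen, was replaced by voom with sizes as recovered and with median-ratio sizes, which are both given because the scaling changes its calls.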

Additional observations from a re-analysis of the deposited data

How the results depend on the processing

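The 3 troponin differences kept their sign in every setting run for them. Their groups did not overlap, so other pseudocounts, the replicate block and leaving out a library could not have turned a sign. Only the rescalings and voom could have. The differences lay from -1.26 to -0.86 (log2) for troponin T, from -1.21 to -0.83 for the abundant and from 0.38 to 0.75 for the minor troponin C. The values with median-ratio rescaling were -0.86, -0.83 and 0.73, and with voom at median-ratio library sizes -0.86, -0.83 and 0.75. The share of the minor troponin C and the ratio of troponin T to troponin C moved by less than 1 SD with a library left out. A mean of 3 libraries cannot move by as much as their SD when 1 is dropped. That comparison therefore could not have come out otherwise and says nothing about how stable the share and the ratio are. Among all genes, 264 passed, and 33 to 1297 with a library left out, the highest without dsFactin replicate 2. The count was 114 at pseudocount 0.01, 117 without a filter, 781 of 12897 tested at a mean of at least 5 FPKM, 121 with median-ratio rescaling, 174 without a trend, 702 with array weights, 1183 with voom and 633 with voom at median-ratio library sizes. Of the contractile list 3 passed, and 0 to 21 with a library left out. The count was 5 at pseudocount 0.1, with quantile normalization and with voom at median-ratio library sizes, 1 at pseudocount 0.01, without a filter, with median-ratio rescaling and without a trend, 26 of 81 tested at a mean of at least 5 FPKM, 14 with array weights and 33 with voom. Same-numbered libraries did not deviate together (r = 0.24, -0.11 and -0.24 over 12851 genes), so the replicate numbers were not taken as pairs; with the replicate block 17 genes and 0 of the contractile list passed. The cause of these changes was not tested. Signs turned with median-ratio rescaling and with voom at those library sizes, given as a pair of log2 values, for tropomyosin Cluster-8110.33952 (0.16 and 0.16), tropomodulin (0.038 and 0.039), a muscle LIM protein (0.095 and 0.10), alpha-actinin (0.062 and 0.060), calsequestrin-2 (0.21 and 0.22) and a calmodulin (Cluster-8110.35831, 0.021 and 0.021). Calsequestrin-2 lay from -0.20 to 0.063 with a library left out, positive without dsFactin replicate 2. With 3 libraries a group, adjusted p-values of genes that differed about as much as the troponins lay on either side of 0.05.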

Other observations

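Calmodulins, the closest relatives of troponin C, are used by all cells. Csa-calmodulin 1 (Cluster-8110.36173) was at 121, 116 and 119.6 FPKM in dsFactin, against 171, 147 and 142 FPKM in dsNC (log2 -0.36 ± 0.12, SE, adjusted p = 0.172, limma). Another calmodulin (Cluster-8110.35831) was at 93.1 ± 15.4 FPKM in dsFactin and 111 ± 7.30 FPKM in dsNC, and overlapped. Csa-calmodulin 6 (Cluster-8110.34156) was at 79.5, 69.9 and 129.7 FPKM in dsFactin, against 69.6, 62.3 and 58.5 FPKM in dsNC (log2 0.50 ± 0.24, SE, adjusted p = 0.321), so that calmodulin clusters too had values on either side. Of 15 tested EF-hand relatives 0 passed in limma or with either voom fit, while 5 had an unadjusted p under 0.05 in limma; their median log2 difference was -0.39.

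At the Z disc a muscle LIM protein (Cluster-8110.35766) was at 663, 497 and 690.3 FPKM in dsFactin, against 677, 735 and 686 FPKM in dsNC (adjusted p = 0.540, limma), and the groups overlapped. A PDZ and LIM domain protein 3-like gene (Cluster-8110.35833) was at 12.7, 17.5 and 11.9 FPKM in dsFactin, against 29.8, 45.8 and 43.6 FPKM in dsNC (log2 -1.43 ± 0.22, SE, adjusted p = 0.0607).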
